A study of Mus musculus with 6 samples.

Results

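The enzymes that carry HMG-CoA to squalene were followed in RNA from alveolar type II cells, the surfactant-making epithelial cells of the lung. The 8 genes were Hmgcs1, Mvk, Pmvk, Mvd, Idi1, Fdps, Ggps1 and Fdft1, taken by their place in the pathway out of 18193 genes that the array annotation names singly. A probe set, the group of short array probes read together as 1 value, was included when its annotated symbol was exactly one of these names, which gave 22 probe sets. Of these, 19 had a mean log2 signal above the 40th percentile of the array and were tested, and all 8 genes kept at least 1 tested probe set. The other 3 were too dim, as described with Fdps and Fdft1.

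There were 3 pools of total RNA per genotype, each on its own array, from mice 2 months old. The deleted group carried SFTPC-rtTA and (tetO)7CMV-Cre over Insig1 flox/flox and Insig2 -/-, so that doxycycline removed Insig1 in cells in which the SFTPC promoter was active. The control group was Insig1 flox/flox and Insig2 -/- and lacked either the rtTA or the Cre transgene. All samples are labelled as exposed to doxycycline between E6.5 and E12.5 of embryonic life. Both groups therefore lacked Insig2, the deleted group alone held the complete Cre system, and how many mice made up each pool is not stated. An effect of that Cre system cannot be told apart from loss of Insig1. The comparison asks what removing Insig1 adds to the transcriptome of cells already without Insig2.

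The mevalonate pathway builds the isoprenoid units of cholesterol, dolichol, ubiquinone and the lipid anchors of small GTPases. Acetyl-CoA units are condensed to HMG-CoA, which is reduced to mevalonate, phosphorylated, decarboxylated and joined head to tail into farnesyl diphosphate. Farnesyl diphosphate is a branch point: squalene synthase commits it to sterols, and geranylgeranyl diphosphate synthase lengthens it for protein prenylation. SREBP2 is the main transcription factor of the sterol route, and INSIG proteins retain its partner SCAP in the endoplasmic reticulum when sterols are plentiful.

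Log2 signals of the arrays had correlations between 0.945 and 0.978 over the 27022 probe sets tested. Array weights from limma, lower for noisier arrays, ran from 0.478 (control replicate 3) and 0.616 (control replicate 2) to 2.08 (deleted replicate 2). Control replicate 3 stood apart on the first principal component (31% of the variance), with a score of -61.5, against -7.64 and 7.9 for its fellow controls and 13.2 to 24.5 for deleted pools. Insig1 itself was measured at 2300, 3325 and 2960 in control and 1252, 1442 and 1750 in deleted pools, with no overlap (adjusted p = 0.096, limma). The labels do not say whether its probes lie in the floxed part. Defining type II cell genes were present in both groups. The summed signal of 11 type II markers ran from 712756 to 837655 in control and from 693294 to 820554 in deleted pools, and none passed the test (limma, with none at an unadjusted p under 0.05 either). Airway transcripts were bright as well, so the RNA was not of type II cells alone. The airway secretory gene Scgb1a1 had a mean signal of 174131 in control and 160799 in deleted pools. The type II marker Sftpc had 120117 and 104760.

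Enzymes along the main line to squalene were higher in Insig1-deleted pools, while the enzyme of the geranylgeranyl branch was not found to differ. On the brightest probe set of each gene, 7 of 8 genes had every deleted pool above every control pool, which 9.2% of all genes tested had. The exception was Ggps1. Hmgcs1, Mvd, Idi1 and Fdps rose on that probe set (adjusted p under 0.05 by limma), 4 of 8 genes, against 0.448% of all genes called higher and 0.0154% called lower. In a fit with 1 probe set per gene, where fewer tests are adjusted for, 6 of 8 passed, against 0.625% called higher. At an unadjusted p under 0.05, 7 of 8 genes were higher and none lower, against 5.93% and 5.95% of all genes. Fdft1 rose on a second probe set. Over single probe sets, 10 of the 19 tested rose and none fell, against 0.315% of all probe sets called higher and 0.0074% called lower. For 14 of the 19 the groups did not overlap, with the deleted pools higher, against 7.69% of all probe sets. The median log2 fold change of the 8 genes, deleted minus control, was 1.14, where that of all 12952 genes was 0.0. The genes and lists were chosen with earlier results of these data known. The shares given here and below therefore describe the lists and do not test them.

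The calls changed with the pools and the variance model used. Without deleted replicate 2, 0 of the 19 probe sets passed in limma (adjusted p from 0.062 to 0.22 for the 10 that had). Without deleted replicate 1 or 3 the count was 4 each time. In a fit in which the variance did not follow signal intensity the count was 0, with adjusted p from 0.059 to 0.2 for those 10. In all of these fits the 10 probe sets stayed higher in deleted pools. Without control replicate 2, 12 of the 19 passed, but the calls over all probe sets turned from mostly higher to 198 higher and 262 lower.

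**Figure D1:**
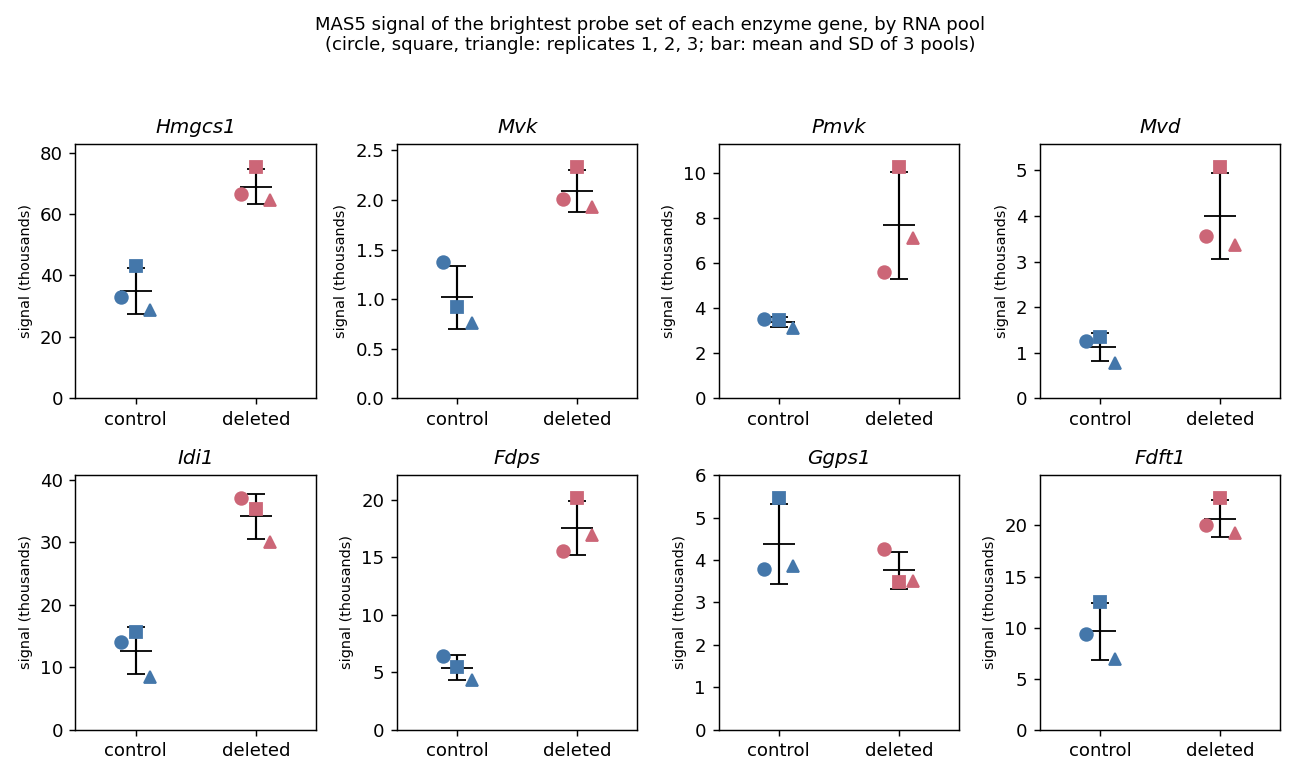
MAS5 signal (linear axis from 0) of the brightest probe set of each gene in 3 control and 3 deleted pools, with the mean and SD as bars and the replicate number as the marker shape. In 7 panels the deleted pools lie above all control pools, and in the Ggps1 panel the groups overlap.

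**Figure D2:**
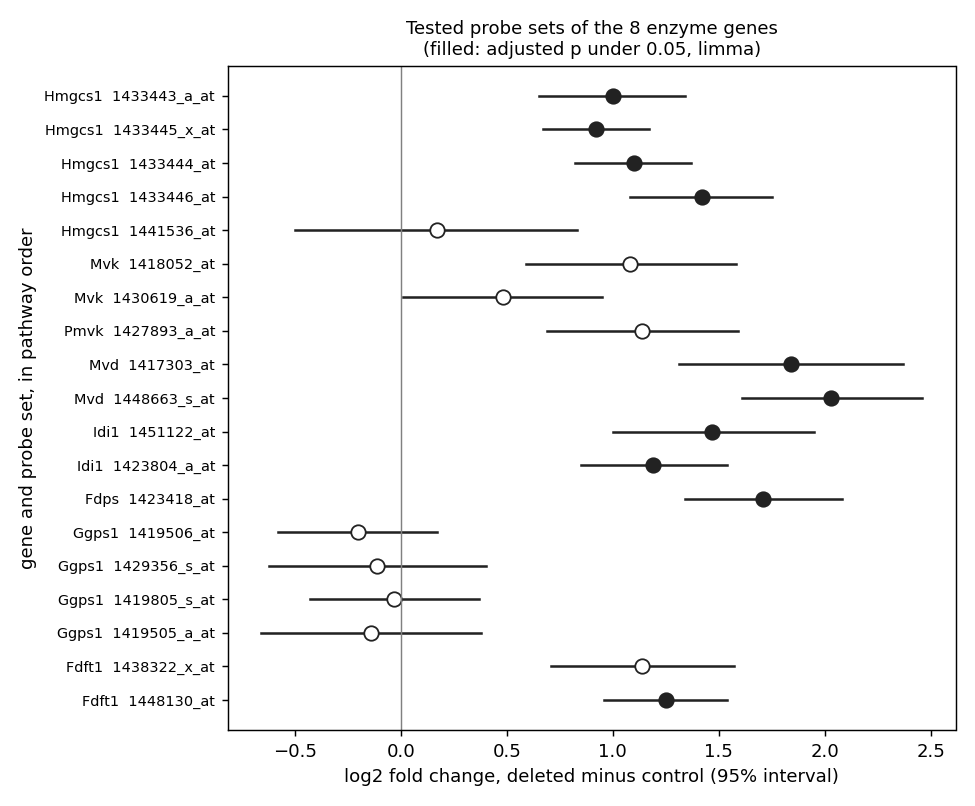
Log2 fold change, deleted minus control, of the 19 tested probe sets in pathway order, with 95% intervals from limma; filled points had an adjusted p under 0.05. The 4 Ggps1 intervals and that of 1 Hmgcs1 probe set include 0, and the other 14 lie above it.

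As all but Ggps1 were higher together, promoters of these genes were read for letters known from SREBP-driven genes. The set of promoter windows used (RefSeq, GRCm38.p6) covered 6 of the 8 genes (Hmgcs1, Mvk, Pmvk, Mvd, Idi1 and Ggps1). It had no entry for Fdps and Fdft1. The 250 bases before each start were searched on both strands. The motifs were TCACNCCAC, a core of the sterol regulatory element, CCAAT, the box bound by NF-Y, and GGGCGG, the box bound by Sp1. None of these motifs overlapped another in the windows. NF-Y and Sp1 are known partners of SREBP at such promoters. The windows of 4 enzymes are shown because they hold 2 or more of these boxes next to a start whose gene had no overlap between groups. Capitals mark the matches, each window is printed 5′ to 3′ on the strand of its gene, and any part lying inside an annotated gene is left out, so 1 GGGCGG match before Mvk is not shown.
Hmgcs1 (chr13:119690101-119690350, plus strand): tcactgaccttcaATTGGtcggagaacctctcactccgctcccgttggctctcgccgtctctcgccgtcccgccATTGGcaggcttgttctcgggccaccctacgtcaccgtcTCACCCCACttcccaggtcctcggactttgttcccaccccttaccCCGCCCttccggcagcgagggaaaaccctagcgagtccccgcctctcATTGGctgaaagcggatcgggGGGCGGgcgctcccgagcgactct
Mvk (chr5:114444074-114444263, plus strand): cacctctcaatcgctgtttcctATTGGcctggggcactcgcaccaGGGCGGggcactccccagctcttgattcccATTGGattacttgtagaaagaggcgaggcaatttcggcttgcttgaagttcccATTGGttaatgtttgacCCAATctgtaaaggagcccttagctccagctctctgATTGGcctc
Mvd (chr8:122443423-122443655, minus strand): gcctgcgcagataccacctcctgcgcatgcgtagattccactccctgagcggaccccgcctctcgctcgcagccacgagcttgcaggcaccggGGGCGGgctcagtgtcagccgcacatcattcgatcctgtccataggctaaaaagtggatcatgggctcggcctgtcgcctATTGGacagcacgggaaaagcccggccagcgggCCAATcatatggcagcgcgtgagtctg
Idi1 (chr13:8885356-8885605, plus strand): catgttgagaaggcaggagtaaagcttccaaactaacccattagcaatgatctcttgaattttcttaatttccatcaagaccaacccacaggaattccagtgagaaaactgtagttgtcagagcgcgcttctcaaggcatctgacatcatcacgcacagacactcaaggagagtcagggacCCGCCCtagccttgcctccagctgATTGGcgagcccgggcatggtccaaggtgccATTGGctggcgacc

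Of the 6 windows, that of Hmgcs1 alone held TCACNCCAC, as TCACCCCAC from base 137 to base 129 before the start; 1.05% of 32851 promoter windows of the same length held it on either strand. CCAAT was in the windows of all 6 genes, Ggps1 included, against 33.8% of promoter windows. The start used for Ggps1 lay inside its annotated gene. The longest stretch of its window outside annotated genes was 42 bases and held none of its CCAAT matches. It occurred 5 times before Mvk, 3 times before Hmgcs1 and before Ggps1, and 2 times before Mvd and before Idi1, and 1 time before Pmvk. GGGCGG was in the windows of Hmgcs1, Mvk, Mvd and Idi1, against 32.7% of promoter windows, and not in those of Pmvk and Ggps1. A match describes the letters of a window and does not show binding.

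Hmgcs1 encodes the cytosolic synthase that joins acetoacetyl-CoA and acetyl-CoA into HMG-CoA, the entry to the pathway. It rose on 4 of its 5 tested probe sets. The brightest (1433443_a_at) had signals of 33061, 43119 and 28664 in control replicates 1 to 3 and of 66657, 75344 and 64590 in deleted replicates 1 to 3. The lowest deleted pool lay above the highest control pool. The fold was 1.99 (log2 1.0 ± 0.15 SE, 95% interval of the fold 1.57 to 2.54, adjusted p = 0.038, limma). The other 3 that rose had folds of 1.89 (1433445_x_at), 2.14 (1433444_at) and 2.67 (1433446_at), with adjusted p of 0.011, 0.0077 and 0.0061 by limma. The fifth (1441536_at) did not pass. Its signals were 2468, 2381 and 1424 in control pools and 3510, 1663 and 2023 in deleted pools, which overlap, and its log2 fold change was 0.17 ± 0.3 (adjusted p = 0.9, limma). Without control replicate 3 that value was -0.09. The brightest Hmgcs1 probe set passed in 2 of the 6 fits that left out 1 pool.

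Mevalonate is phosphorylated first by mevalonate kinase, the product of Mvk, and then by phosphomevalonate kinase, the product of Pmvk. Neither gene passed the threshold, although groups did not overlap for either. Mvk (1418052_at) had signals of 1374, 917 and 762 in control pools and 2014, 2335 and 1930 in deleted pools. Its log2 fold change was 1.08 ± 0.22 (2.11-fold, interval 1.5 to 2.98, adjusted p = 0.11, limma). The dimmer Mvk probe set (1430619_a_at) also had separate groups, at 637 to 791 in control and 839 to 1244 in deleted pools, with a smaller log2 fold change of 0.48 ± 0.21 (adjusted p = 0.48).

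Pmvk has 1 probe set on the array (1427893_a_at). Its control pools lay close together, at 3512, 3487 and 3102, whereas its deleted pools spread from 5610 over 7114 to 10255. The highest deleted pool was 1.83 times the lowest, the widest such ratio among the deleted pools of the 8 genes. The log2 fold change was 1.14 ± 0.2 (2.21-fold, interval 1.62 to 3.02, adjusted p = 0.06, limma). In the fit with 1 probe set per gene, over 12952 genes, Pmvk passed by limma (adjusted p = 0.042) and Mvk did not (adjusted p = 0.083).

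Mvd encodes the decarboxylase that makes isopentenyl diphosphate, the isoprenoid unit itself. It had the largest fold of the 8 genes, on both of its probe sets. The brighter (1417303_at) went from 1257, 1350 and 781 in control pools to 3558, 5080 and 3373 in deleted pools. Even the lowest deleted pool was well above the highest control pool. It rose 3.58-fold (log2 1.84 ± 0.24, interval of the fold 2.48 to 5.19, adjusted p = 0.014, limma), and passed in 3 of the 6 fits that left out 1 pool. The other (1448663_s_at) rose 4.09-fold, from 879 ± 150 to 3610 ± 696 (SD, n = 3, limma adjusted p = 0.0061).

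Mvd and Mvk were compared within each array, since a difference of log2 signals on the same array needs no scaling between arrays. Mvd minus Mvk was -0.13, 0.56 and 0.04 in control pools and 0.82, 1.12 and 0.81 in deleted pools, a change of 0.76 that left the groups apart. The exact two-sided permutation test gave p = 0.1, the smallest that 3 pools against 3 allow, and 0.1 after adjustment over the 3 pairs compared. This test cannot reach 0.05 with these numbers of pools. With the mean over the probe sets of each gene the change was 1.16.

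Isopentenyl diphosphate is isomerised to dimethylallyl diphosphate by the enzyme that Idi1 encodes, and Fdps encodes farnesyl diphosphate synthase, which condenses these units. Both genes rose. Idi1 (1451122_at) had signals of 13986, 15591 and 8381 in control pools and 37031, 35265 and 30057 in deleted pools. Control replicate 3 was the lowest by a wide margin, and the deleted pools were all far above. The fold was 2.78 (log2 1.47 ± 0.21, interval of the fold 2.0 to 3.87, adjusted p = 0.025, limma). The log2 fold change was 1.2 without control replicate 3. The second Idi1 probe set (1423804_a_at) rose 2.29-fold, from 4932 ± 1081 to 11130 ± 528 (SD, n = 3, limma adjusted p = 0.014). Each Idi1 probe set passed in 2 of the 6 fits that left out 1 pool. Both missed the threshold without control replicate 1 (limma adjusted p = 0.069 and 0.064) and without each deleted replicate.

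Fdps (1423418_at) went from 6429, 5473 and 4307 in control pools to 15573, 20147 and 16903 in deleted pools. The deleted pools were all more than 2 times the highest control pool. It rose 3.27-fold (log2 1.71 ± 0.16, interval of the fold 2.53 to 4.22, adjusted p = 0.0061, limma), and it passed in 5 of the 6 fits that left out 1 pool. A second Fdps probe set (1438150_at) lay at 17.1 or less in every pool, below the filter of 271, and was not tested.

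Fdft1 encodes squalene synthase, which takes farnesyl diphosphate into the sterol route. Its 2 tested probe sets gave close values on different sides of the threshold. The brighter (1438322_x_at) had signals of 9410, 12515 and 6956 in control and 20079, 22672 and 19285 in deleted pools, with no overlap. Its log2 fold change was 1.14 ± 0.19 (2.2-fold, interval 1.63 to 2.98, adjusted p = 0.054, limma). The other (1448130_at) had signals of 4792, 4760 and 3842 in control and 10315, 11592 and 9899 in deleted pools. Its control pools lay closer together, and it rose 2.38-fold (log2 1.25 ± 0.13, adjusted p = 0.0061, limma). In the fit with 1 probe set per gene the brighter probe set passed too (adjusted p = 0.037, limma). Of its dim probe sets, 1438919_x_at had signals of 144, 43.5 and 35 in control and 114, 128 and 201 in deleted pools and 1438918_at of 15.7 to 177 over all pools. Both lay below the filter with overlapping groups.

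Ggps1 encodes geranylgeranyl diphosphate synthase, which extends farnesyl diphosphate for the lipid anchors of Rab proteins. None of its 4 tested probe sets passed by limma, and none had an unadjusted p under 0.05. The brightest (1419506_at) had signals of 3789, 5460 and 3869 in control and 4263, 3494 and 3513 in deleted pools. The groups overlapped, with control replicate 2 the highest. The log2 fold change was -0.2 ± 0.17 (0.868-fold, adjusted p = 0.74, limma), and the 95% interval of the fold, 0.668 to 1.13, ended below the lower bound of every other gene's brightest probe set. The other probe sets had log2 fold changes of -0.14 (1419505_a_at), -0.11 (1429356_s_at) and -0.03 (1419805_s_at). The last was 0.01 under quantile normalization and 0.04 with arrays set to a common median, so no direction is given for Ggps1. The -0.11 was 0.15 without control replicate 3, and the -0.14 was 0.07 without deleted replicate 2.

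Both enzymes of the farnesyl diphosphate branch point, and the enzyme that supplies it, were therefore compared within arrays. Fdft1 minus Ggps1 was 1.31, 1.2 and 0.85 on the log2 scale in control pools and 2.24, 2.7 and 2.46 in deleted pools, a change of 1.34. Fdps minus Ggps1 was 0.76, 0.0 and 0.15 in control and 1.87, 2.53 and 2.27 in deleted pools, a change of 1.91. In both pairs every deleted pool lay above every control pool, and the SDs within a group were 0.24 and 0.23 for the first pair and 0.4 and 0.33 for the second. The exact permutation p was 0.1 for each, the smallest possible here, and 0.1 after adjustment over the 3 pairs. With 1 pool left out the changes ran from 1.21 to 1.46 for the first pair and from 1.76 to 2.14 for the second.

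The pools of a genotype differed among themselves in a shared way across these enzymes. The mean log2 signal of the 8 genes, centred per gene, was -0.45, -0.36 and -0.91 in control replicates 1 to 3 and 0.51, 0.75 and 0.46 in deleted replicates 1 to 3. Control replicate 3 was the lowest control pool for 7 of the 8 genes, all but Ggps1. Deleted replicate 2 was the highest deleted pool for 6, and deleted replicate 3 the lowest for 5. Within control pools the ratio of the highest to the lowest signal ran from 1.13 for Pmvk to 1.86 for Idi1. Without control replicate 3, the pool that stood apart over all genes, the median log2 fold change of the 8 genes was 1.01, with 11 of 19 probe sets and 5 of 8 genes past the threshold. Over all probe sets that fit called 185 higher and 14 lower, 199 in all against 87 with all arrays.

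**Figure D3:**
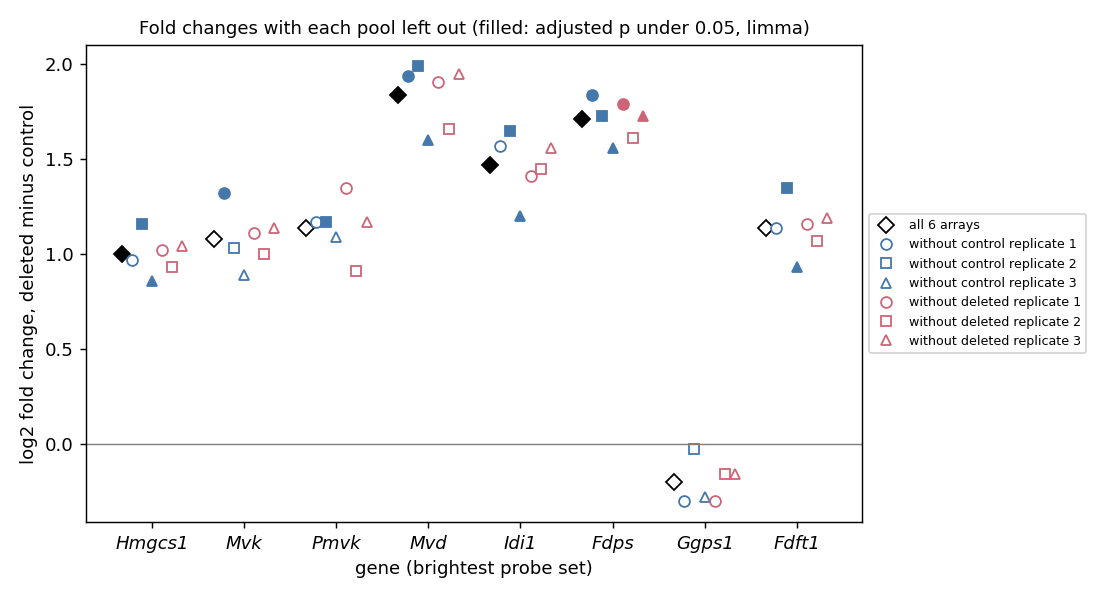
Log2 fold change, deleted minus control, of the brightest probe set of each gene with all 6 arrays (black diamonds) and with 1 pool left out (blue for a control pool, red for a deleted pool); filled points had an adjusted p under 0.05 by limma. Values of 7 genes stay above 0 in every fit, from 0.86 (Hmgcs1 without control replicate 3) upward, and those of Ggps1 lie between -0.3 and -0.03.

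Genes whose signal over the 6 arrays was most like the mean of the 8 enzymes were named by Pearson's r, as a description without a test. They were Tm7sf2, a sterol reductase gene (0.999), Slc38a10, a solute carrier gene (0.999), Erp29, a chaperone gene of the endoplasmic reticulum (0.997), Retnla, a resistin-like secreted protein gene (0.997), and Lipg, endothelial lipase (0.995). Among them Tm7sf2 (3.06-fold, adjusted p = 0.014) and Retnla (4.44-fold, adjusted p = 0.0061) rose by limma. The points share the difference between genotypes, and control replicate 3 was the lowest array for all 5. Of the 8 enzymes themselves, r with their mean was 0.94 or more for 7 and -0.336 for Ggps1. Each enzyme is part of that mean, so a high r is partly built in.

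Downstream of squalene the sterol enzymes were higher as well. Of 11 genes tested, 8 rose and none fell, against 0.448% of all genes called higher and 0.0154% called lower (median log2 fold change 1.31). They were Sqle, squalene epoxidase (2.11-fold), Lss, lanosterol synthase (4.67-fold), Cyp51 (3.06-fold), Tm7sf2 (3.06-fold), Msmo1 (2.47-fold), Nsdhl (2.52-fold), Hsd17b7 (2.47-fold) and Dhcr7 (3.79-fold), with adjusted p between 0.00089 and 0.039 by limma. Sc5d lay at 2.11-fold (adjusted p = 0.052), Lbr at 1.16-fold and Ebp at 0.927-fold. Over all the pathway lists besides the 8 enzymes, 1 gene passed without deleted replicate 2, and 1 in the fit without an intensity trend.

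Genes of other isoprenoid routes, including genes that process their products, were not found to differ. None of 9 genes for dolichol, ubiquinone, haem A and tRNA modification passed by limma (median log2 fold change 0.05). At an unadjusted p under 0.05, 1 was higher and none lower, against 5.93% and 5.95% of all genes. It was Dolpp1, a dolichyl pyrophosphate phosphatase gene, at 1671 ± 86.1 in deleted and 1178 ± 317 in control pools (log2 0.54 ± 0.21, adjusted p = 0.44). Next was Pdss2, a subunit of the synthase of the ubiquinone tail, at log2 -0.49. None of 11 genes of protein prenylation passed by limma (median 0.12). Again 1 was higher at an unadjusted p under 0.05 and none lower, against the same shares of all genes. It was Pcyox1, prenylcysteine oxidase, at 14157 ± 823 in deleted and 10521 ± 1675 in control pools (log2 0.44 ± 0.13, adjusted p = 0.31). Chml, a Rab escort protein gene, lay at log2 -0.49.

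Among 8 regulators and sterol-handling genes none passed by limma (median 0.29). At an unadjusted p under 0.05 there were 4 above and 1 below their controls, against 5.93% and 5.95% of all genes. The 4 above were Stard4, Srebf1, Srebf2 and Scap, and the 1 below was Insig1 itself, the gene deleted by design. Srebf1 lay at log2 0.69 ± 0.18 (adjusted p = 0.25, limma) and Scap at log2 0.44 ± 0.18 (adjusted p = 0.46, limma), both with no overlap. Stard4, a sterol carrier gene, had signals of 3173 ± 1048 in control and 8048 ± 1495 in deleted pools (log2 1.39 ± 0.25, adjusted p = 0.072). Srebf2, the gene of SREBP2, lay at 4893, 4794 and 3480 in control and 6417, 6112 and 5223 in deleted pools, with no overlap (log2 0.44 ± 0.16, adjusted p = 0.4, limma). Insig2, labelled as absent in both groups, had 2249 ± 392 in control and 1981 ± 110 in deleted pools on its brightest probe set, which shows a signal and not an intact transcript. None of 8 genes of the machinery that degrades pathway enzymes passed by limma, none had an unadjusted p under 0.05 (median 0.12), and Rnf145 and Ube2g2, with the smallest p, both lay at log2 0.19.

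**Figure D4:**
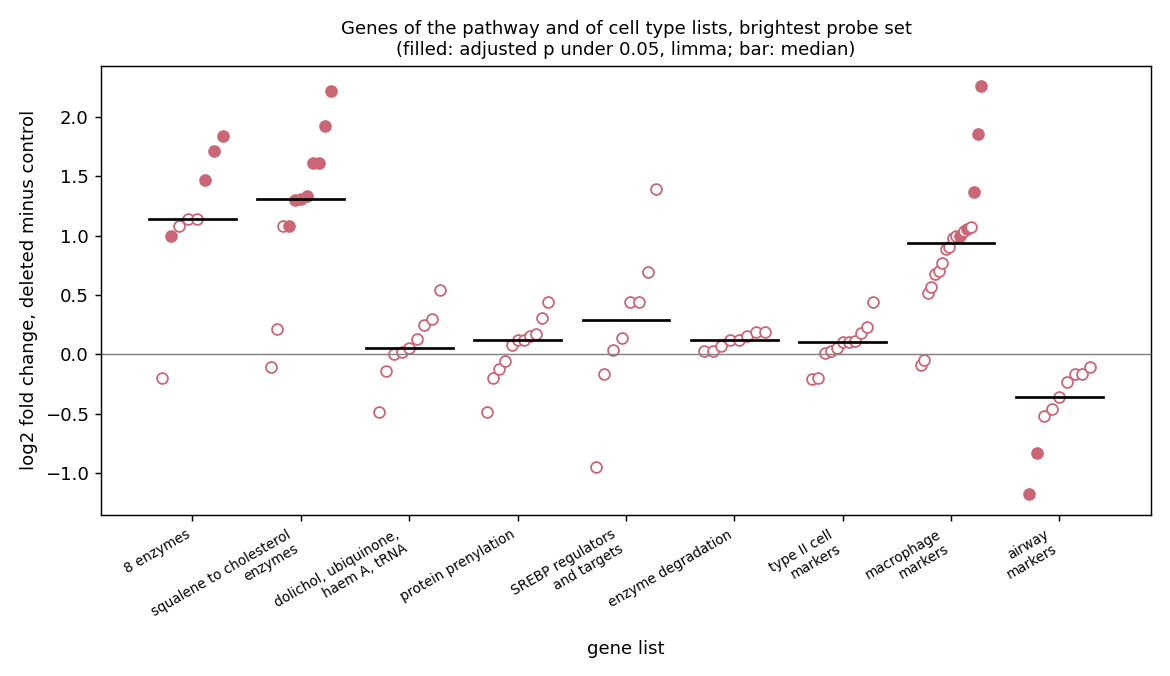
Log2 fold change, deleted minus control, of each tested gene on its brightest probe set, by gene list, with the median as a bar; filled points had an adjusted p under 0.05 by limma. The 8 enzymes and the enzymes from squalene to cholesterol have medians of 1.14 and 1.31, macrophage markers 0.94, and the lists of isoprenoid users 0.05 and 0.12.

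Many macrophage markers were higher in deleted pools as well. Of 18 macrophage markers tested, 5 rose and none fell by limma (0.448% of all genes were called higher), 14 had groups that did not overlap (9.2% of all genes), and their median log2 fold change was 0.94. The 5 were Marco (4.79-fold), Gpnmb (3.64-fold), Mpeg1 (2.58-fold), Chil3 (2.09-fold) and Cd68 (2.0-fold). The summed signal of the 18 ran from 300124 to 392179 in control and from 392033 to 442135 in deleted pools. Lyz1 and Lyz2, which type II cells also express, made up most of it. Without them the sum ran from 64457 to 87711 in control and from 142484 to 156723 in deleted pools. Of the defining markers Trem2 lay below the filter.

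Macrophages also run the mevalonate pathway, and their part in the enzyme signals was not tested. In bulk RNA, more cells of a type and more RNA per cell cannot be told apart. Of 9 airway markers, 2 fell (Sox2 and Ccdc153, adjusted p = 0.046 and 0.018, limma) where 0.0154% of all genes were called lower, the median was -0.36, and the summed signal ran from 395504 to 528407 in control and from 345234 to 433084 in deleted pools. Medians of the other lists were 0.4 for 9 lymphocyte markers, 0.95 for 3 neutrophil markers, 0.04 for 7 type I cell markers, 0.04 for 6 endothelial markers and -0.09 for 6 mesenchymal markers, with none past the threshold by limma. At an unadjusted p under 0.05 by limma, 2 lymphocyte and 2 neutrophil markers were higher and none lower, against 5.93% and 5.95% of all genes. The single erythroid marker tested, Alas2, lay at -0.53.

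Genes next to the 8 enzymes on the chromosome were checked as a measure of local change. Of 16 nearest protein-coding neighbours 12 were tested and 1 rose, against 0.448% of all genes called higher. It was Cyba, which lies beside Mvd and encodes a subunit of the phagocyte NADPH oxidase (1.63-fold, adjusted p = 0.041, limma). Mmab lies next to Mvk, with its start on the other side of the Mvk window shown, and encodes a cobalamin-processing enzyme. It had signals of 488, 357 and 194 in control and 445, 630 and 566 in deleted pools, which overlap (log2 0.74, adjusted p = 0.52). Ctsb, whose annotated span overlaps that of Fdft1, lay at 1.07-fold (adjusted p = 0.81, limma). Cyba and Ctsb had every deleted pool above every control pool, as 9.2% of all genes had.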

How the data were processed

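Total RNA from 6 pools of isolated type II cells, 3 per genotype, was labelled with biotin and hybridised to 1 Affymetrix array each, per the labels. The authors deposited signal intensities per probe set, linear and made with MAS5 per the submitters' processing notes; its version is not stated. MAS5 treats each array alone and is noisy for dim probe sets. Medians of the deposited intensities differed by at most 0.167 (log2) between arrays, and no further normalization was applied. A floor of 1 preceded log2. The 64 control probe sets were left out of 45101, as were from testing those with a mean log2 signal at or under the 40th percentile (8.08, a signal of 271), leaving 27022.

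The 2 genotypes were tested with lmFit and eBayes of limma 3.58.1 (R 4.3.3, variance trend on intensity, two-sided). P-values were adjusted by Benjamini-Hochberg over the 27022 probe sets, with a threshold of 0.05 and 95% intervals. In gene lists the brightest tested probe set naming that gene alone stands for it. Pools are described as independent, but the mice behind them are not described, so a p-value here reflects only how these pools vary. Precision is limited by having few arrays. The fit was also run on simulated signals with independent noise. These hold no difference shared by the genes of a pool, so they do not bear on calls lost when a pool was left out.

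The 8 genes, the lists and the tests were chosen with earlier results of these data known. Genes named are the 8 enzymes, those of each list past the threshold or else the 2 with the smallest p, Srebf2, Insig1 and Insig2, neighbours, and the 5 genes most like the enzymes. Lbr, Ebp, Sc5d, Trem2, Alas2, Scgb1a1, Sftpc, Srebf1 and Scap were named after their values were seen. Some listed genes are not analysed here.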

Additional observations from a re-analysis of the deposited data

How the results depend on the processing

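The 10 member probe sets past the threshold stayed above 0 in all 144 alternative values and missed it in 36. The 9 other tested member probe sets passed in 13 of 129. With 1 pool left out the count of member probe sets past the threshold ran from 0 to 12, that of member genes from 0 to 6, that of the other pathway genes from 1 to 10 (8 with all arrays) and that of all probe sets from 3 to 460 (87 with all arrays). The lowest came without deleted replicate 2 and the highest, for all probe sets, without control replicate 2. Without an intensity trend these counts were 0, 0, 1 and 4. All probe sets past the threshold numbered 131 with arrays at a common median, 170 with array weights, 145 with the replicate block and 168 at an adjusted p under 0.1. The median log2 fold change of the member genes ran from 1.01 to 1.26 over all alternatives. The change of Mvd minus Mvk was 1.16 with the mean over probe sets.

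Values near 0 changed sign. The Ggps1 probe set 1419805_s_at lay at 0.01 with quantile normalization and 0.04 at a common median, and 1429356_s_at at 0.02 with array weights. The Hmgcs1 probe set 1441536_at lay at -0.07 with array weights. With 1 pool left out these ranged from -0.12 to 0.07, -0.28 to 0.15 and -0.15 to 0.39, and Ggps1 1419505_a_at from -0.3 to 0.07. The cause was not tested.

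The replicate numbers did not clearly pair the pools. Correlations of same-numbered deviations were 0.107, 0.0538 and 0.133, and each pool correlated best with its own number, a hint from the data and not from the design. With the replicate block 12 member probe sets and 6 member genes passed. Signal intensity limits the dim probe sets most, of which 3 were left untested.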
